A study of Mus musculus with 9 samples.

Results

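The Cyp2a and Cyp2b genes of the mouse encode cytochrome P450 enzymes of hepatocytes, and 7 of them were followed here by their gene symbols, out of 21936 genes in the deposited table. They are 4 Cyp2a genes, Cyp2a4, Cyp2a5, Cyp2a12 and Cyp2a22, and 3 Cyp2b genes, Cyp2b9, Cyp2b10 and Cyp2b13. The set was chosen by name with the FPKM values of these same livers and their fold changes between the groups known, so the levels and fold changes of the 7 genes between groups are a description, with no test. RNA was sequenced from the livers of 9 male wild-type C57BL/6 mice, bought at 9 weeks of age and killed after 1 week of adaptation and 4 weeks of feeding. The HGPP group (3 mice) ate a diet deficient in methionine and choline and was gavaged with the high dose, 300 mg/kg, of polysaccharides of the herb Gynostemma pentaphyllum in 0.5% sodium carboxymethylcellulose (CMC-Na). The MCD group (3 mice) ate the same deficient diet and was given CMC-Na alone. The MCS group (3 mice) ate a diet sufficient in both nutrients and was given CMC-Na alone. The deficient diet is a dietary model of steatohepatitis without obesity, and each library is the liver of 1 mouse, taken from the right lobe, so the spread within a group is that between animals.

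Cytochrome P450 enzymes of the CYP2 family sit in the endoplasmic reticulum and use electrons passed on by the P450 oxidoreductase to oxidise drugs, steroids and fatty acids. The enzymes made from Cyp2a4 and Cyp2a5 are near-identical, yet the product of Cyp2a4 hydroxylates testosterone at carbon 15, while that of Cyp2a5 hydroxylates coumarin and nicotine. Cyp2b10 is the classical target of the nuclear receptor CAR, which phenobarbital activates, and Cyp2b9, Cyp2b13 and Cyp2a4 are known for higher levels in female than in male mouse liver, a difference set by the pattern of growth hormone secretion.

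The values are FPKM, fragments counted per kilobase and scaled to library size, in which levels of genes of different length can be compared roughly. With gene lengths from GENCODE vM21 (GRCm38), the reads behind them were recovered and came to 13355280 to 15691011 fragments per library in HGPP, 11492653 to 16702367 in MCD and 14964993 to 18902863 in MCS. These lengths take all annotated exons of a gene. They are 3457 bases for Cyp2a12 and 3445 for Cyp2a22, whose transcripts used for the sequence comparisons below have 1681 and 1796 bases. The levels of these 2 genes beside the other members depend on that choice of length, while fold changes between groups do not. All 7 genes passed the filter on low values, 0.1 FPKM or more in no fewer than 3 libraries, as did 13817 genes of the table. Each pair of groups was tested with limma, using log2(FPKM + 0.1), and a gene is called where its Benjamini-Hochberg adjusted p is under 0.05. Fold changes on this scale understate those of low genes. The median log2 fold change of all 13817 genes was -0.07 for HGPP against MCD, 0.33 for HGPP against MCS and 0.40 for MCD against MCS. The comparisons with MCS thus carry a general shift of the FPKM values. Median-of-ratios scaling centres the libraries on a common median, so its values of -0.01, 0.01 and 0.02 for the same comparisons follow from the method. Whether the shift is technical or a change in the RNA of the livers was not tested.

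The 7 genes did not share 1 pattern. Cyp2a4 was the gene that set the deficient diet apart from the sufficient one, with means of 957 FPKM in HGPP and 936 FPKM in MCD, against 4.42 FPKM in MCS. Cyp2b10 was the gene that set HGPP apart from both other groups, at a low level. The other 5 genes overlapped between the groups in every comparison.

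**Figure D1:**
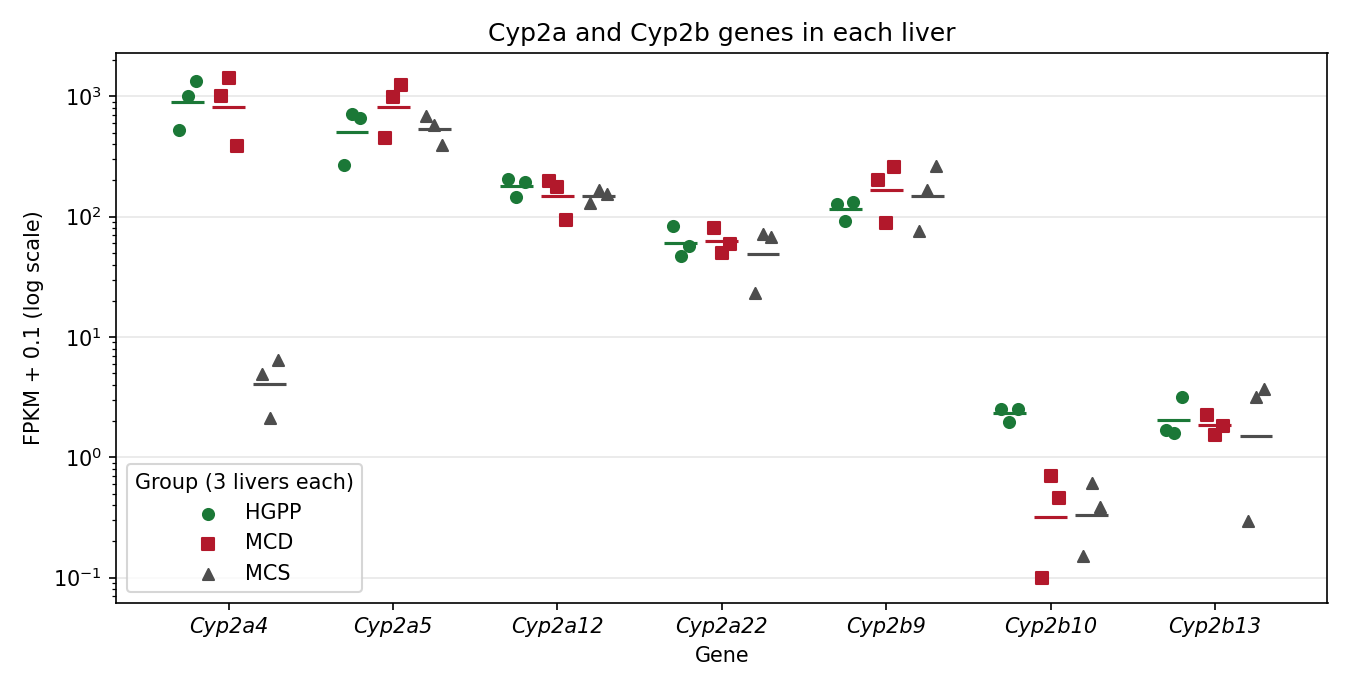
FPKM + 0.1 of the 7 genes on a log axis, with 1 point for each liver and a bar at the mean of the log values of each group (HGPP, MCD and MCS from left to right, 3 livers each). Cyp2a4 lies between 388 and 1421 FPKM in the 6 livers on the deficient diet, against 2.03 to 6.38 FPKM in MCS, and Cyp2b10 lies between 1.87 and 2.41 FPKM in HGPP, above all MCD and MCS livers.

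For Cyp2a4, the testosterone 15-hydroxylase, the HGPP livers had 522, 1010 and 1339 FPKM, the MCD livers 999, 1421 and 388 FPKM, and the MCS livers 4.84, 2.03 and 6.38 FPKM. All livers on the deficient diet thus lay far above all livers on the sufficient diet, while the HGPP and MCD livers overlapped. The gene averaged 957 ± 411 FPKM in HGPP, 936 ± 519 FPKM in MCD and 4.42 ± 2.21 FPKM in MCS (SD, n = 3 each). The mean FPKM was 217-fold that of MCS in HGPP and 212-fold in MCD. On the log scale the fold change was 7.77 ± 0.43 for HGPP against MCS, 7.65 ± 0.49 for MCD against MCS (SE) and 0.12 ± 0.50 for HGPP against MCD, and with median-of-ratios scaling the values against MCS were 7.42 in HGPP and 7.24 in MCD. In both comparisons with MCS this was rank 1 of the 13817 genes by log2 fold change. Among all genes of a library, ordered by FPKM, Cyp2a4 ranked 33 to 77 in HGPP and 30 to 103 in MCD, against 4256 to 7441 in MCS. The MCS values rest on 159, 55 and 166 reads. In bulk liver, fewer cells of a type and less RNA per cell cannot be told apart, for this gene as for the others.

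Cyp2a5, the coumarin hydroxylase, did not share this pattern. It had 268, 720 and 660.2 FPKM in the HGPP livers, 453 FPKM, 995 FPKM and 1234 FPKM in the MCD livers, and 685, 577 and 392 FPKM in the MCS livers. The groups overlapped, and the lowest value of all belonged to HGPP replicate 1. The means were 549 ± 246 FPKM in HGPP, 894 ± 400 FPKM in MCD and 551 ± 148 FPKM in MCS (SD, n = 3 each). The log2 fold change was -0.71 ± 0.46 for HGPP against MCD, -0.10 ± 0.37 for HGPP against MCS and 0.61 ± 0.37 for MCD against MCS (SE). With median-of-ratios scaling, which takes out the general shift, the last of these was 0.19. Without MCD replicate 1 it was 1.04.

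The change of Cyp2a4 beside a Cyp2a5 that overlapped turned the order of the pair round. As a share of the summed FPKM of the pair, Cyp2a4 made up 66.1%, 58.4% and 67.0% in the HGPP livers and 68.8%, 58.8% and 23.9% in the MCD livers, against 0.70%, 0.35% and 1.60% in the MCS livers. Cyp2a4 was therefore the higher of the pair in 5 of the 6 livers on the deficient diet, and Cyp2a5 was the higher in MCD replicate 3 and in all MCS livers. The summed level of the pair was 789 to 1999 FPKM in HGPP and 1452 to 2416 FPKM in MCD, against 399 to 690 FPKM in MCS, with no overlap between the diets. The log2 fold change of the sum, on the same scale and with no test, was 1.37 for HGPP against MCS and 1.72 for MCD against MCS.

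**Figure D2:**
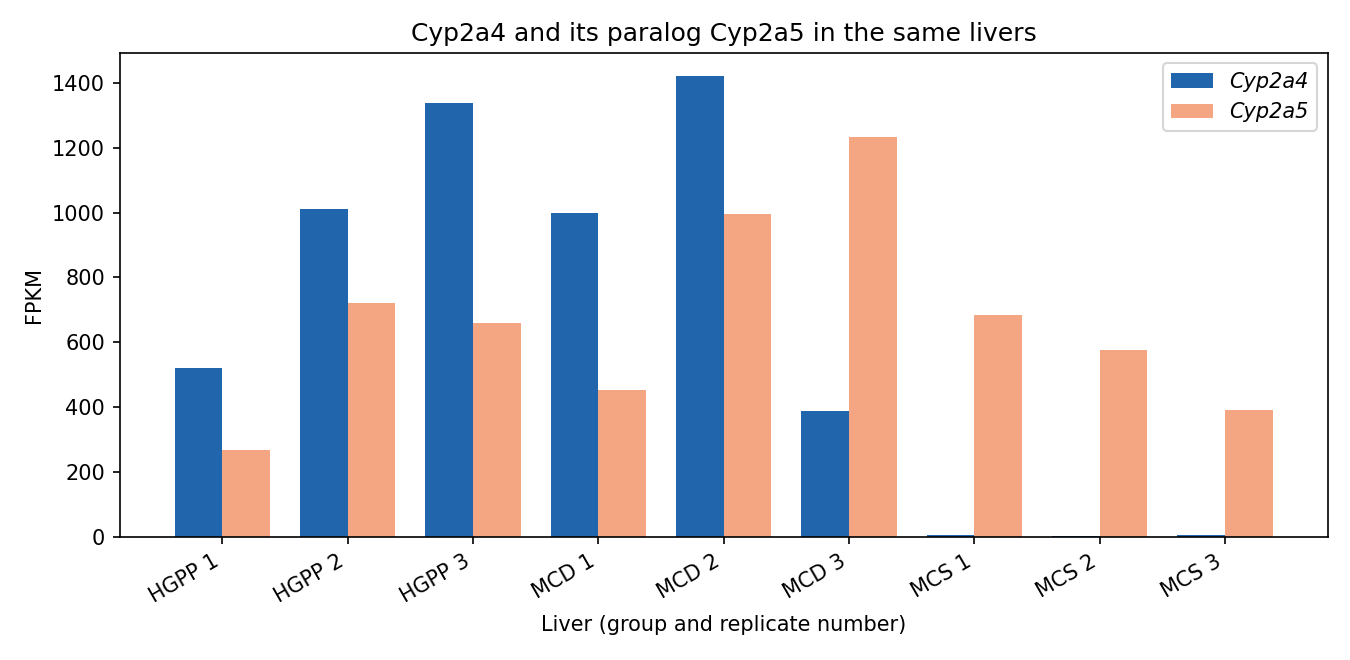
FPKM of Cyp2a4 and Cyp2a5 in each of the 9 livers, as bars side by side on a linear axis that starts at 0. Cyp2a4 is the higher bar in 5 of the 6 HGPP and MCD livers and is barely visible in the MCS livers, where Cyp2a5 stands at 392 to 685 FPKM.

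How far the reads of the pair can be told apart depends on their sequence. The coding sequences of Cyp2a4 and Cyp2a5, 1482 bases each without the stop codon in GENCODE vM21 (GRCm38, chromosome 7, + strand), differ at 23 bases, an identity of 98.4%, and the longest run without a difference is 216 bases, from coding base 742 to 957. The stretch from coding base 550 to 669 holds 6 of the differences, and it is shown because a read that covers it can be assigned to its gene. Capitals mark the bases that differ.
Cyp2a4 coding bases 550-669: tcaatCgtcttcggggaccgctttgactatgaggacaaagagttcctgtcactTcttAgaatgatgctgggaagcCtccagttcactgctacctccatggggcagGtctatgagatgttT
Cyp2a5 coding bases 550-669: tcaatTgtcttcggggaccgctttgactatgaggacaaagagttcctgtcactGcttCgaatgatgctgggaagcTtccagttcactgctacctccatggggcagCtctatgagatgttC
Counted from the first coding base and written from Cyp2a4 to Cyp2a5, the differences are C555T, T603G, A607C, C625T, G655C and T669C. Over the whole Cyp2a4 transcript, 38.0% of all windows of 50 bases, 11.2% of those of 100 bases and 4.22% of those of 150 bases occur unchanged in another Cyp2 gene, which was Cyp2a5 or, for the shorter windows, also the pseudogene Cyp2a21-ps. The read length and the handling of reads that match several genes were not given in the sources used here, so reads of the pair are uncertain to that extent. If part of the Cyp2a5 reads had been assigned to Cyp2a4, the share that Cyp2a4 takes in MCS, 0.29% to 1.35% of the reads of the pair, bounds that part in those livers from above.

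The promoters of the pair are as close as the coding sequences. They are shown because these 2 genes, which stood at such different levels in the MCS livers, carry nearly the same bases around their starts. Each window runs from 250 bases before to 50 bases after the start annotated by RefSeq on GRCm38.p6, 5′ to 3′ on the + strand, at chr7:26306942-26307241 for Cyp2a4 and chr7:26835089-26835388 for Cyp2a5. Capitals mark the bases that differ between them.
Cyp2a4 promoter: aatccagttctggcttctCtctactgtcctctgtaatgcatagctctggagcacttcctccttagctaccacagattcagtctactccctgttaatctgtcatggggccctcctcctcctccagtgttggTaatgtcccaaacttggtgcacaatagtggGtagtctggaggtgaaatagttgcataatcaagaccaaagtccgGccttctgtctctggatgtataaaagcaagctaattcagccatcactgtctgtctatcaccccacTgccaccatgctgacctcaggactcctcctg
Cyp2a5 promoter: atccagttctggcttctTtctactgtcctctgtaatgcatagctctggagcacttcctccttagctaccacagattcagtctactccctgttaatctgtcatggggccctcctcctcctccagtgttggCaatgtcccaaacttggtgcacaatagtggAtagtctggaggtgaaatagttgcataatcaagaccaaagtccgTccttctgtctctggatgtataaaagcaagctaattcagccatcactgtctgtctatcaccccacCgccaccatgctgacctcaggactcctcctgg
The windows differ at 5 of 299 aligned bases (98.3% identity), and counted from the first printed base of Cyp2a4 the differences are C19T, T131C, G161A, G205T and T270C. A search for 3 motifs by their letters on both strands found each of them once in both windows, without overlap. TTGCATAA, a form of the site of the clock-controlled PAR bZIP factors and of C/EBP proteins, begins at base 181 of the Cyp2a4 window and 180 of the Cyp2a5 window, and was present in 0.743% of 32851 mouse promoter windows. CAAAGTCC, a form of the site of HNF4, begins at base 196 and at base 195 of these windows and was present in 1.42% of promoter windows. TATAAA, the TATA box, begins at base 223 and at base 222 and was present in 13.6%. Of the 5 differences 0 lie inside a match. A match of letters is a description and not a site that was shown to be bound.

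Cyp2a12 and Cyp2a22, the second pair of Cyp2a paralogs, share 97.0% of their coding bases and 90.3% of their aligned promoter bases. Cyp2a12, which hydroxylates testosterone and bile acids in mice, had 205, 146 and 193 FPKM in HGPP, 198, 177 and 93.5 FPKM in MCD, and 129, 166 and 154.5 FPKM in MCS. The groups overlapped, with MCD replicate 3 lowest of all 9 livers. Its log2 fold change was 0.27 ± 0.30 for HGPP against MCD, 0.27 ± 0.17 for HGPP against MCS and -0.00 ± 0.28 for MCD against MCS (SE). Cyp2a22 had 82.9, 46.9 and 57.4 FPKM in HGPP, 81.0, 49.9 and 59.5 FPKM in MCD, and 23.3, 72.0 and 68.1 FPKM in MCS. These groups overlapped too, and MCS replicate 1 stood lowest. The fold change of Cyp2a22 on the log2 scale was -0.04 ± 0.27 for HGPP against MCD, 0.32 ± 0.40 for HGPP against MCS and 0.36 ± 0.40 for MCD against MCS (SE). Without MCS replicate 1 it was -0.21 and -0.17 in the comparisons of HGPP and of MCD with MCS, so the sign of both rests on that liver. Both promoters hold TATAAA and neither TTGCATAA nor CAAAGTCC.

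Among the Cyp2b genes, Cyp2b9 gave nearly all of the level. It took 96.0% to 96.9% of the summed FPKM of the 3 Cyp2b genes in HGPP, 97.8% to 99.2% in MCD and 97.9% to 99.7% in MCS. Cyp2b9, a female-predominant P450 of mouse liver, had 127, 91.7 and 133 FPKM in HGPP, 200.3 FPKM, 88.7 FPKM and 259.6 FPKM in MCD, and 76.2, 166 and 264 FPKM in MCS. The groups overlapped, and the values within MCD and within MCS differed among animals more than those within HGPP. The log2 fold change was -0.53 ± 0.37 for HGPP against MCD, -0.37 ± 0.38 for HGPP against MCS and 0.15 ± 0.47 for MCD against MCS (SE). With median-of-ratios scaling the value for HGPP against MCS was -0.72, which was not called either, and without MCS replicate 1 the value on the FPKM scale was -0.86.

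Cyp2b13, likewise a female-predominant gene, stood at a low level. It had 1.60, 1.49 and 3.06 FPKM in HGPP, 2.13, 1.44 and 1.71 FPKM in MCD, and 0.20, 3.07 and 3.60 FPKM in MCS. The groups overlapped, and MCS replicate 1, with 7 reads, stood below all other livers, where the gene had 40 to 101 reads. The log2 fold change was 0.15 ± 0.32 for HGPP against MCD, 0.43 ± 0.83 for HGPP against MCS and 0.28 ± 0.78 for MCD against MCS (SE). Without MCS replicate 1 it was -0.74 for HGPP against MCS and -0.90 for MCD against MCS. That liver was also the lowest of the MCS livers for Cyp2b9 and Cyp2a22, and across the 9 livers the log2 level of Cyp2b13 went with that of Cyp2a22 (Pearson r = 0.85) and of Cyp2b9 (r = 0.66), as a description over livers that share a diet or a treatment.

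The promoters of Cyp2b9 and Cyp2b13 are shown because genes at such different levels differ so little there. The windows run from 250 bases before to 50 bases after the RefSeq start on GRCm38.p6, + strand, at chr7:26173159-26173458 for Cyp2b9 and chr7:26061245-26061544 for Cyp2b13, and capitals mark the bases that differ.
Cyp2b9 promoter: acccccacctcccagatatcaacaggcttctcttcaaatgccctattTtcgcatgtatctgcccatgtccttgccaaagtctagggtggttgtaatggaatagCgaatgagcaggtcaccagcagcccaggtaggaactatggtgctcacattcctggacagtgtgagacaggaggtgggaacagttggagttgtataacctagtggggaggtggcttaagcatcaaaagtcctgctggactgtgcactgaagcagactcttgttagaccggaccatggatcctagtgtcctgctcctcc
Cyp2b13 promoter: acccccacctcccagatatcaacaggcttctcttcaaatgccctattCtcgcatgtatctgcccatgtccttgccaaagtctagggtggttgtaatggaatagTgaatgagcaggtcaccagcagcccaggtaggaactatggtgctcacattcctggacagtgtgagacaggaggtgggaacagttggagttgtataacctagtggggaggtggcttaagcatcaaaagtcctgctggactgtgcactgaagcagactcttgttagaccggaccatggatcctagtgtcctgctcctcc
They differ at 2 of 300 bases (99.3% identity), T48C and C104T, written from Cyp2b9 to Cyp2b13 and counted from the first printed base. The coding sequences of the pair are less alike, with 107 differences in 1473 bases (92.7% identity), and 1.18% of windows of 100 bases in either transcript occur in the other. The mean level of Cyp2b9 was 117 FPKM in HGPP, 183 FPKM in MCD and 169 FPKM in MCS, against 2.05, 1.76 and 2.29 FPKM of Cyp2b13 in the same groups. None of TATAAA, TTGCATAA and CAAAGTCC occurs in either window.

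Cyp2b10, the phenobarbital-inducible P450, was low in all livers and highest in HGPP. It had 2.41, 1.87 and 2.41 FPKM in the HGPP livers, from 68, 58 and 80 reads. The MCD livers had 0, 0.60 and 0.36 FPKM, from 0, 21 and 10 reads, and the MCS livers 0.05, 0.52 and 0.28 FPKM, from 2, 17 and 9 reads. All HGPP livers stood above all livers of both other groups, while the MCD and MCS livers overlapped. The mean was 2.23 ± 0.31 FPKM in HGPP, 0.32 ± 0.30 FPKM in MCD and 0.28 ± 0.23 FPKM in MCS (SD, n = 3 each), which is 7.01-fold that of MCD and 7.88-fold that of MCS in HGPP. On the log2 scale the fold change was 2.87 ± 0.61 for HGPP against MCD, 2.82 ± 0.46 for HGPP against MCS and -0.05 ± 0.72 for MCD against MCS (SE). Its rank by log2 fold change on this scale was 1 of 13817 genes for HGPP against MCD and 54 for HGPP against MCS, and ranks under other settings are not given here. The size depends on the scale at this level, since with a pseudocount of 1 in place of 0.1 the log2 fold change for HGPP against MCD was 1.32, with 0.01 it was 4.09, and with voom on the recovered reads it was 3.58. With median-of-ratios scaling it was 2.89 for HGPP against MCD and 2.58 for HGPP against MCS. MCD replicate 1, at 0 reads, is also the library of lowest depth, and without it the log2 fold change for HGPP against MCD was 2.03.

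**Figure D3:**
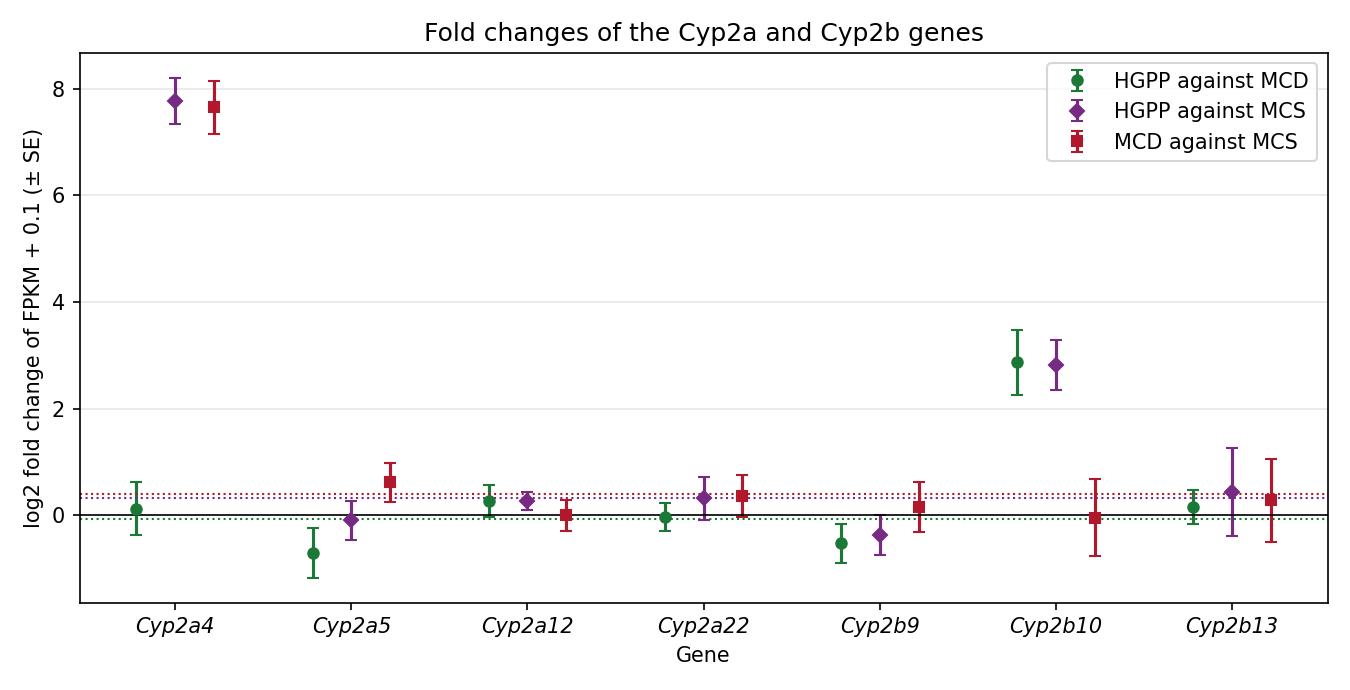
Log2 fold change of FPKM + 0.1 (limma, with SE) of the 7 genes for HGPP against MCD, HGPP against MCS and MCD against MCS, with 3 livers a group and a dotted line at the median of all 13817 genes in each comparison. Cyp2a4 stands at 7.77 and 7.65 in both comparisons with MCS, Cyp2b10 at 2.87 and 2.82 in both comparisons of HGPP, and the other points lie between -0.71 and 0.61.

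The Cyp2b10 promoter is shown for its difference from the other Cyp2b promoters. The window, from 250 bases before to 50 bases after the RefSeq start at chr7:25897408-25897707 (GRCm38.p6, + strand), matches that of Cyp2b9 at 76.1% of 289 aligned bases. Capitals mark TTGCATAA, at base 193, which the Cyp2b9 and Cyp2b13 windows do not hold.
Cyp2b10 promoter: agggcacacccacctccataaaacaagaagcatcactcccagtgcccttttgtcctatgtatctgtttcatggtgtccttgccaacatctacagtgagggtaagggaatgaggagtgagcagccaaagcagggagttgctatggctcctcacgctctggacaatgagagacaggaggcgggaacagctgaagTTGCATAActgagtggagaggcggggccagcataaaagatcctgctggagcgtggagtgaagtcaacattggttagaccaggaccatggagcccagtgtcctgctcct
Cyp2b10 shares 87.8% of its coding bases with Cyp2b9 and 88.7% with Cyp2b13, and 0 of its windows of 100 bases occur in another of 78 Cyp2 genes searched. Of its windows of 50 bases 8.57% do. The enhancer through which CAR acts on Cyp2b10 lies further upstream than this window and was not searched.

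For HGPP against MCD, 0 of the 7 genes were called, beside 0.0217% of all 13817 genes, which is 3 genes. At an unadjusted p under 0.05 the set had 1 gene, Cyp2b10, beside 13.7% of all genes, and voom called 1 gene of the table and 0 of the set. Groups that do not overlap were found for 1 of the 7, Cyp2b10, which was higher, beside 5.83% of all genes with every HGPP liver above every MCD liver. For HGPP against MCS, 2 of the 7 were called, Cyp2a4 and Cyp2b10, beside 18.8% of all genes (16.4% higher and 2.48% lower), and the same 2 had all HGPP livers above all MCS livers, beside 36.7% of all genes. For MCD against MCS, 1 of the 7 was called, Cyp2a4, beside 22.1% of all genes (19.6% higher and 2.55% lower), and it alone had all MCD livers above all MCS livers, beside 38.1% of all genes. The median log2 fold change of the 7 genes was 0.12, 0.32 and 0.28 in these 3 comparisons, beside -0.07, 0.33 and 0.40 for all genes. Since the genes were chosen with these contrasts known, nothing is read from the counts. The comparisons share their HGPP, MCD and MCS livers, so that the like values of Cyp2a4 against MCS, and of Cyp2b10 in HGPP, are not independent of each other.

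The 7 genes lie in 1 cluster on chromosome 7, over 1139.76 kb from the start of Cyp2b10 to the end of Cyp2a12 (GENCODE vM21, GRCm38). From the start of the cluster the order is Cyp2b10 (ENSMUSG00000030483, chr7:25897620-25926624), Cyp2b13 (ENSMUSG00000040583, chr7:26061497-26096197), Cyp2b9 (ENSMUSG00000040660, chr7:26173411-26210661), Cyp2a4 (ENSMUSG00000074254, chr7:26307169-26315088), Cyp2a5 (ENSMUSG00000005547, chr7:26835305-26843548), Cyp2a22 (ENSMUSG00000091867, chr7:26931631-26939384) and Cyp2a12 (ENSMUSG00000060407, chr7:27029081-27037375). Cyp2a22 is on the - strand and the others are on the + strand. The table lists the genes by these Ensembl identifiers. With 100 kb added on each side, the annotation holds 43 genes, of which 10 besides the 7 are in the table and 4 passed the filter. Cyp2f2, which oxidises naphthalene, was lower in MCD than in MCS, with 87.8 ± 47.7 FPKM against 209 ± 20.2 FPKM (SD, n = 3 each, log2 fold change -1.38, limma adjusted p = 0.0168), and stood at 136 ± 41.4 FPKM in HGPP. Cyp2g1, an olfactory P450, and Cyp2s1 were not called in any comparison, with means of 0.89, 0.83 and 1.64 FPKM and of 0.25, 0.20 and 0.06 FPKM in HGPP, MCD and MCS. Cyp2b23 was at 0 in all livers and Cyp2b19 at a mean of 0.01 FPKM or less. Nlrp9c, an NLR-family gene named here after its values were seen, is the next gene of the table beyond the end of Cyp2a4 (chr7:26322473-26403700, - strand). It had 0.34 ± 0.02 FPKM in HGPP, 0.39 ± 0.34 FPKM in MCD and 0.02 ± 0.02 FPKM in MCS (SD, n = 3 each), and was called for HGPP against MCS (log2 fold change 1.92, limma adjusted p = 0.00461) and not for MCD against MCS (log2 fold change 1.74, limma adjusted p = 0.0606). Whether reads that run past the end of Cyp2a4 reach it was not tested, and an antisense gene over the start of Cyp2a4, Gm42375, is not in the table. The use of strand in the counting was not given in the sources used here, so reads of overlapping genes cannot be told apart.

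**Figure D4:**
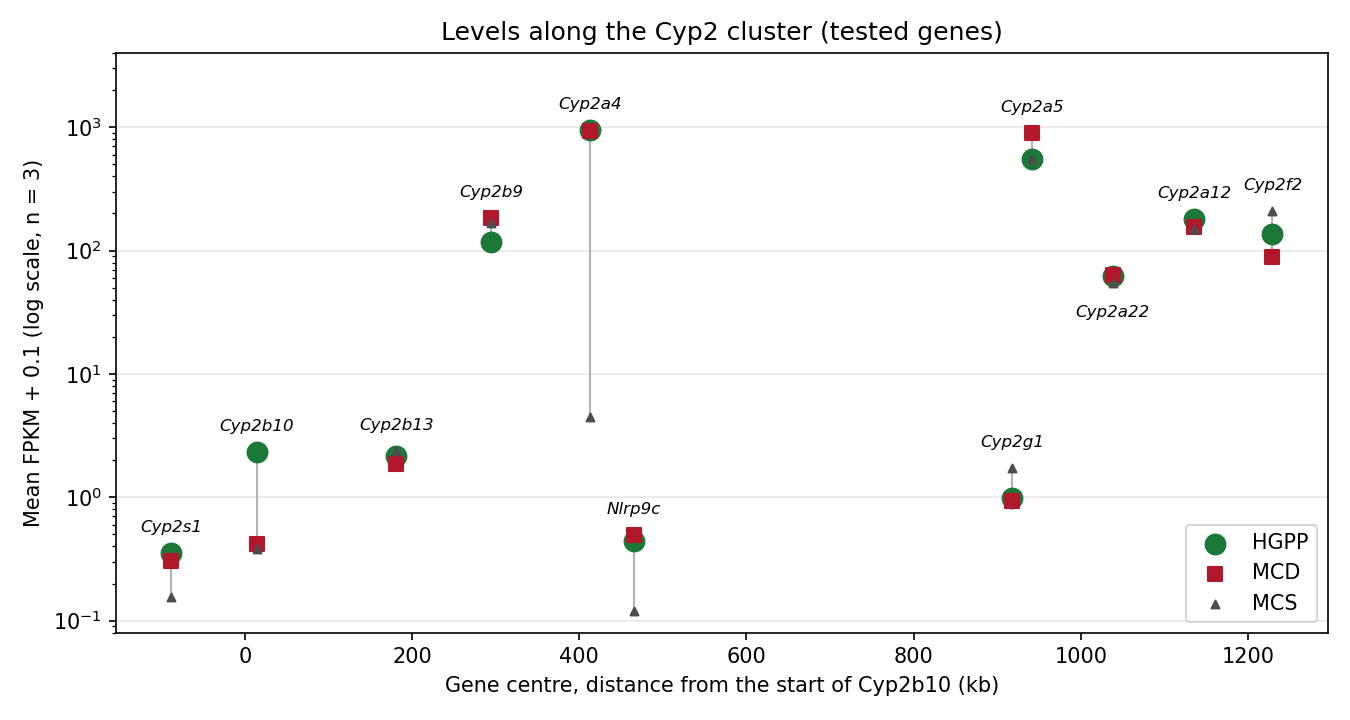
Mean FPKM + 0.1 (log axis, n = 3) of the 11 tested genes of the cluster in HGPP, MCD and MCS against the distance of the centre of each gene from the start of Cyp2b10, in kb, with a grey line from the lowest to the highest group mean. Cyp2a4 spans 4.42 to 957 FPKM, while its paralog Cyp2a5, further along the cluster, spans 549 to 894 FPKM.

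Other genes of the P450 system were examined by lists written by hand. The counts of this and the later lists stand beside the shares of all 13817 genes. These were 16.4% higher and 2.48% lower for HGPP against MCS, and 19.6% higher and 2.55% lower for MCD against MCS. For HGPP against MCD, 0.0217% of all genes were called and 13.7% had an unadjusted p under 0.05. The redox partners, 6 genes that pass electrons to P450 enzymes or bind them, gave 0 calls for HGPP against MCD (1 at an unadjusted p under 0.05 and 0 by voom) and for HGPP against MCS (0 by either), and 1 for MCD against MCS. That gene was Cyb5b, the mitochondrial cytochrome b5, with 31.9, 42.2 and 31.9 FPKM in MCD against 73.0, 64.3 and 95.1 FPKM in MCS (log2 fold change -1.12 ± 0.22, SE, limma adjusted p = 0.00773). Por, the oxidoreductase that feeds all microsomal P450 enzymes, had 249 ± 39.5 FPKM in HGPP, 198 ± 56.6 FPKM in MCD and 235 ± 79.1 FPKM in MCS (SD, n = 3 each) and was not called.

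Target genes of the nuclear receptors CAR and PXR, which sense drugs and bile acids and of which Cyp2b10 is a target too, went in both directions against MCS. Of the 22 genes, all tested, 6 were higher and 5 lower in HGPP than in MCS, 1 was higher and 8 lower in MCD than in MCS, and 0 were called for HGPP against MCD, where 7 had an unadjusted p under 0.05 and voom called 0. Of these 7, Cyp2c29, Gstm3, Cyp2c55, Aldh1a1, Ces2a and Cyp3a11 were higher in HGPP and Gadd45b was lower. The median log2 fold change of the list in this comparison was 0.30, beside -0.07 for all genes. Akr1b7, an aldo-keto reductase, had 3.51, 2.29 and 2.24 FPKM in HGPP against 0.08, 0.15 and 0.10 FPKM in MCS (log2 fold change 3.69 ± 0.28, limma adjusted p = 0.000286). Its MCD livers had 0.68, 4.53 and 0.24 FPKM and overlapped with HGPP. Abcc4, an efflux pump of bile acids and drugs, was higher in HGPP (log2 fold change 2.85 ± 0.30, limma adjusted p = 0.00107) and in MCD (log2 fold change 2.97 ± 0.55, limma adjusted p = 0.00628) than in MCS. The glutathione transferase Gstm3 was higher in HGPP than in MCS, at 336 ± 97.7 FPKM against 81.3 ± 23.8 FPKM (SD, n = 3 each, limma adjusted p = 0.00254), and was not called in MCD (log2 fold change 0.71). The lower genes included P450 genes of the Cyp2c subfamily. Cyp2c54 had 1.05, 1.30 and 0.96 FPKM in HGPP and 2.53, 0.47 and 3.46 FPKM in MCD, against 21.0, 29.0 and 11.0 FPKM in MCS, and was called in both comparisons (limma adjusted p = 0.000386 and 0.00533). Cyp2c37 and Cyp2c50 were also called lower than in MCS in both groups, with log2 fold changes of -1.75 and -1.41 in HGPP and -1.74 for both in MCD. Cyp2c29 and the bilirubin transferase Ugt1a1 were called lower in MCD (-1.98 and -2.23) and not in HGPP (-0.68 and -1.13). Of the list 3 genes, Abcc4, Gstm1 and Gstm3, also stand in the NRF2 list below.

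Most regulators of Cyp2a and Cyp2b genes were not called, which holds for most of all genes too. Of 27 genes, 1 was higher and 4 lower in HGPP than in MCS, beside 16.4% and 2.48% of all genes. In MCD 0 were higher and 3 lower than in MCS, beside 19.6% and 2.55% of all genes. For HGPP against MCD 0 were called, where 4 had an unadjusted p under 0.05, beside 13.7% of all genes, and voom called 0. Nr1i3, which encodes CAR, had 5.55, 3.65 and 4.24 FPKM in HGPP, 6.37, 4.88 and 11.1 FPKM in MCD, and 6.94, 8.38 and 9.22 FPKM in MCS. It was lower in HGPP than in MCS (log2 fold change -0.87 ± 0.20, limma adjusted p = 0.0211), the group in which Cyp2b10 was highest, and was not called in the other comparisons. Nr1i2, which encodes PXR, had 42.5 ± 6.83 FPKM in HGPP, 56.6 ± 8.32 FPKM in MCD and 42.0 ± 5.85 FPKM in MCS (SD, n = 3 each) and was not called. Ghr, the growth hormone receptor, was lower than in MCS in HGPP (16.2 ± 2.20 FPKM against 33.9 ± 4.55 FPKM) and in MCD (16.0 ± 0.66 FPKM against the same level), with limma adjusted p of 0.00439 and 0.00576. Among the PAR bZIP factors, whose type of site stands in the Cyp2a4, Cyp2a5 and Cyp2b10 promoters, Hlf was lower in HGPP and in MCD than in MCS (log2 fold change -0.87 and -0.82, limma adjusted p = 0.039 and 0.0496). Dbp was lower in HGPP than in MCS (log2 fold change -1.33, limma adjusted p = 0.0112), and its MCD livers, at 43.8, 28.5 and 13.3 FPKM, spread over the range of MCS. Tef, another of these factors, had 16.9 ± 0.46 FPKM in HGPP, 28.4 ± 7.35 FPKM in MCD and 23.9 ± 4.84 FPKM in MCS (SD, n = 3 each). It was not called in any comparison, while with median-of-ratios scaling it was called lower in HGPP than in MCS (log2 fold change -0.83). These genes follow the time of day, and the hour at which each mouse was killed was not given in the sources used here. For HGPP against MCD, the 4 regulators at an unadjusted p under 0.05 were Dbp, Tef, Cux2 and Foxa3. Of these, Dbp, Tef and Cux2 were lower in HGPP (log2 fold change -1.27, -0.71 and -1.99) and Foxa3 was higher (0.66). Hlf overlapped between these groups (-0.05). Cebpb was called higher than in MCS in HGPP (log2 fold change 1.16, limma adjusted p = 0.035) and not in MCD (1.23), and with median-of-ratios scaling in neither. Cebpa was called lower in MCD (log2 fold change -0.94, limma adjusted p = 0.0422) and not in HGPP (-0.77). A call in HGPP and not in MCD, or the reverse, is no test of a difference between them, and in none of these lists was a gene called for HGPP against MCD.

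Sex-biased liver genes were examined because Cyp2a4, Cyp2b9 and Cyp2b13 are higher in females. Of 29 female-biased genes other than the 7, 26 were tested, and 3 were higher and 4 lower in HGPP than in MCS, 5 higher and 2 lower in MCD than in MCS, and 0 called for HGPP against MCD, where 5 had an unadjusted p under 0.05 and voom called 0. With median-of-ratios scaling the counts were 1 higher and 4 lower in HGPP and 3 higher and 3 lower in MCD. Cyp3a44, a female-specific P450, had 16.1, 18.6 and 115 FPKM in HGPP and 48.6, 62.3 and 16.4 FPKM in MCD, against 0.27, 0.69 and 0.61 FPKM in MCS. It was called higher in both (log2 fold change 5.79 ± 0.66 and 5.96 ± 0.47, limma adjusted p = 0.00148 and 0.000256), and as for Cyp2a4 all livers on the deficient diet lay above all MCS livers. Sult2a2, a hydroxysteroid sulfotransferase, and Atp6v0d2, a subunit of the vacuolar proton pump, had log2 fold changes against MCS of 3.74 and 1.90 in MCD, both called, and of 2.13 (called) and 0.44 (not called) in HGPP. Sult2a2 was low, at 0.20, 1.29 and 1.12 FPKM in HGPP, 1.29, 12.6 and 0.72 FPKM in MCD, and 0.07, 0.09 and 0.09 FPKM in MCS. With median-of-ratios scaling it was not called in HGPP. Nipal1 was called higher in HGPP (0.92) and in MCD (1.08), and in neither with median-of-ratios scaling. Going the other way, Hao2 was lower than in MCS in HGPP and in MCD (log2 fold change -1.67 and -2.37). Cyp2c69 and Fitm1 were called lower in HGPP (-3.33 and -0.96) and not in MCD (-3.11 and 0.03), and Cyp39a1 was called lower in MCD (-1.25) and not in HGPP (0.30). The female-biased genes called thus lay on both sides, while Cyp2b9 and Cyp2b13 overlapped between the groups.

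Most of the male-biased genes called were lower than in MCS. Of 27 genes, 24 were tested, with 3 higher and 11 lower in HGPP than in MCS, 1 higher and 13 lower in MCD than in MCS, and 0 called for HGPP against MCD, where 4 had an unadjusted p under 0.05 and voom called 0. The median log2 fold change of the list was -0.89 and -1.36 against MCS, beside 0.33 and 0.40 for all genes, and 0.52 for HGPP against MCD, beside -0.07. The urinary protein gene Mup7 had 5.58, 1.78 and 13.5 FPKM in HGPP and 1.60, 0.06 and 4.50 FPKM in MCD, against 86.5, 233 and 41.3 FPKM in MCS. Mup7 and Mup11 belong to a family of near-identical genes whose reads may be split. Elovl3, a fatty acid elongase, was lower than in MCS in HGPP (log2 fold change -2.18, limma adjusted p = 0.0039) and in MCD (log2 fold change -3.95, limma adjusted p = 0.00149). Hsd3b5, a steroid reductase, was lower in HGPP (log2 fold change -3.50, limma adjusted p = 0.0039) and in MCD (log2 fold change -3.76, limma adjusted p = 0.0128) as well. Gstp2, a glutathione transferase, was higher in both (log2 fold change 3.40 and 3.07), and Mup20 and Ihh were called higher in HGPP (1.16 and 2.07) and not in MCD (0.73 and 1.36). Mup20 was not called with median-of-ratios scaling.

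NRF2, a transcription factor of the response to oxidative stress, is a known inducer of Cyp2a5, so its targets were examined as well. Of 16 genes, 9 were higher and 0 lower in HGPP than in MCS, 7 were higher and 1 lower in MCD than in MCS, and 0 were called for HGPP against MCD, where 6 had an unadjusted p under 0.05 and voom called 0. Srxn1, which reduces oxidised peroxiredoxins, had 110 ± 33.8 FPKM in HGPP and 55.6 ± 30.5 FPKM in MCD, against 14.8 ± 4.65 FPKM in MCS (SD, n = 3 each), and was called in both (log2 fold change 2.89 and 1.82, limma adjusted p = 0.000549 and 0.00754). Gsta1, a glutathione transferase, was higher in HGPP and in MCD (log2 fold change 5.17 and 4.36), and so was Hmox1, heme oxygenase (1.60 and 2.60). Me1, malic enzyme, was called lower in MCD (-1.06) and not in HGPP (-0.10). Cyp2a5 itself was not called in either comparison.

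**Figure D5:**
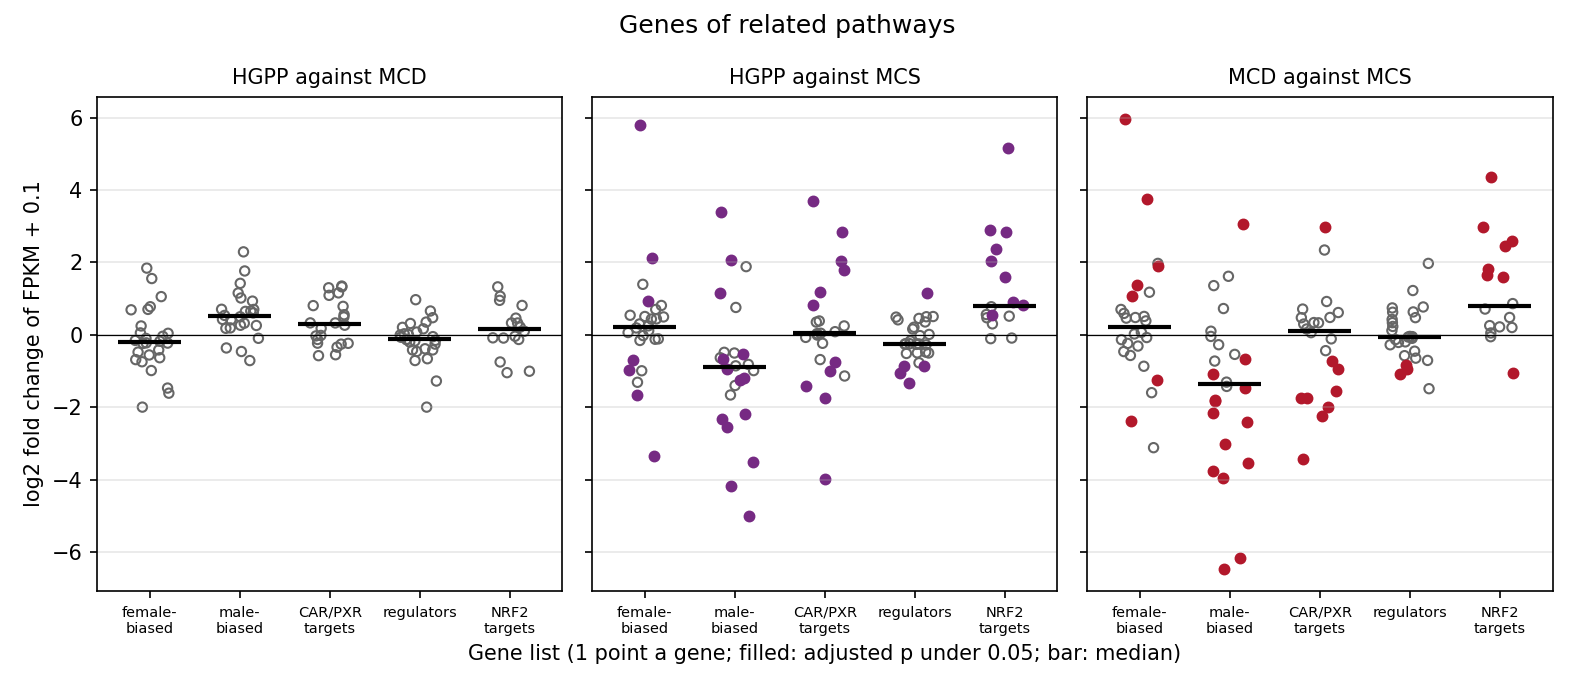
Log2 fold change of FPKM + 0.1 of each tested gene in 5 lists, with 1 point a gene, filled where limma's adjusted p is under 0.05, and a bar at the median, for HGPP against MCD, HGPP against MCS and MCD against MCS. The male-biased genes lie mostly below 0 against MCS, with medians of -0.89 and -1.36, the NRF2 targets mostly above, with medians of 0.80 and 0.79, and the female-biased and CAR and PXR lists lie on both sides.

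Markers of liver cell types are given by their summed levels, which were not tested as sums, and by the calls of their genes. The 9 hepatocyte markers tested summed to 57433 to 62636 FPKM in HGPP and 39880 to 77702 FPKM in MCD, against 75323 to 94154 FPKM in MCS, and 1 was higher and 3 lower in HGPP, and 0 higher and 1 lower in MCD, than in MCS. With median-of-ratios scaling these counts were 0 higher and 2 lower in HGPP and 0 higher and 3 lower in MCD. The 10 macrophage markers summed to 170 to 314 FPKM in HGPP and 215 to 1083 FPKM in MCD, against 47.2 to 152 FPKM in MCS, with 7 higher and 0 lower in HGPP, and 8 higher and 0 lower in MCD, than in MCS. With median-of-ratios scaling 4 were higher in HGPP and 7 in MCD, and with a library left out 4 to 9 were called for HGPP and 6 to 10 for MCD. Of the 10 markers of other leukocytes, which summed to 9.33 to 22.3 FPKM in HGPP, 43.3 to 138 FPKM in MCD and 7.45 to 12.5 FPKM in MCS, Ly6g was at 0 in HGPP and MCS. In this list 9 genes were tested, and 1 was higher in HGPP and 5 in MCD than in MCS, with 0 lower. With median-of-ratios scaling 0 were higher in HGPP and 3 in MCD. The 12 stellate and endothelial markers summed to 54.1 to 96.7 FPKM in HGPP, 56.5 to 123 FPKM in MCD and 38.8 to 57.8 FPKM in MCS, and the 6 cholangiocyte markers to 24.3 to 95.4 FPKM, 26.7 to 151 FPKM and 13.4 to 22.9 FPKM in these groups. The cholangiocyte sums mostly follow 1 gene, Spp1, and do not describe the list as a set. Spp1 alone had 80.8 FPKM in HGPP replicate 2, 141.8 FPKM in MCD replicate 2 and 11.2 to 18.9 FPKM in the MCS livers. Of the 5 cholangiocyte markers tested, 1 was higher in HGPP and 2 in MCD than in MCS, with 0 lower. With median-of-ratios scaling 0 were called in either comparison. For HGPP against MCD, 0 genes of these marker lists were called. At an unadjusted p under 0.05 stood 8 of 10 macrophage markers and 7 of 9 of other leukocytes, beside 13.7% of all genes. The median log2 fold changes of these lists were -1.49 and -1.54, beside -0.07 for all genes. The hepatocyte, stellate and endothelial, and cholangiocyte lists had 0 of 9, 3 of 12 and 0 of 5 such genes. The part of these cell types in the levels of the Cyp2a and Cyp2b genes was not tested. Genes of the hepatocytes around the central vein, where Cyp2a5 and Cyp2b10 are known to be expressed, gave 0 calls of 12 for HGPP against MCS (3 at an unadjusted p under 0.05 and 1 by voom), and 2 for MCD against MCS, Cyp2c29 and Aldh1a1, both lower. Both genes also stand in the list of CAR and PXR targets. Of 12 genes of periportal hepatocytes, 1 was higher and 4 lower in HGPP, and 0 higher and 3 lower in MCD, than in MCS. The medians of these lists were -0.25 and -0.03 for the pericentral genes and -0.24 and -0.16 for the periportal genes, all below the medians of all genes.

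The genes whose log2 level followed each member most closely over the 9 livers were taken from 10653 genes with a group mean of at least 1 FPKM, and are given as a description, since the 9 livers share diets and treatments. For Cyp2a4 they were Vars (Pearson r = 0.99), which loads valine onto its transfer RNA, Ccdc120 (r = 0.98) and Ptp4a3 (r = 0.98). Vars had 13.7 ± 1.77 FPKM in HGPP and 13.5 ± 0.87 FPKM in MCD, against 6.77 ± 0.58 FPKM in MCS (SD, n = 3 each), so its steps between groups were far smaller than those of Cyp2a4. For Cyp2b10 they were Cyp26b1 (r = 0.96), a P450 that breaks down retinoic acid, Nif3l1 (r = 0.96) and Dntt (r = 0.95), and Cyp26b1 had 6.44 ± 1.48 FPKM in HGPP, 2.94 ± 1.27 FPKM in MCD and 2.60 ± 0.67 FPKM in MCS. For Cyp2a5 they were Tmem63b (r = 0.94), Hbb-bs (r = 0.93), a beta globin gene of red blood cells, and Ubtd1 (r = 0.93). Cyp2a12 went with Tkfc (r = 0.96), Pter (r = 0.96) and Hs3st3b1 (r = 0.95), Cyp2a22 with Slc23a1 (r = 0.96), a transporter of vitamin C, Zfp101 (r = 0.95) and Fam198a (r = 0.95). Cyp2b9 went with Atxn7l1, Dll1 and Ankzf1 (r = 0.93, 0.91 and 0.91), and Cyp2b13 with Lysmd4, Sik3 and Exd2 (r = 0.89, 0.89 and 0.88). Among the 7 genes themselves, r ranged from -0.65, between Cyp2a5 and Cyp2a12, to 0.85, between Cyp2a22 and Cyp2b13, and was 0.19 between Cyp2a4 and Cyp2a5.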

How the data were processed

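Liver RNA of 9 mice was sequenced. The deposited values are FPKM for 21936 genes, already trimmed, aligned, counted and divided by length and depth by the authors. Cutadapt and HTSeq are named in the paper's methods. The submitters' notes list fastp 0.20.1, STAR 2.7.7a and featureCounts 2.0.0. The genome build was not given in the sources used here. Of 115796 values of up to 1000 reads, 98.13% were whole within 0.02 reads with GENCODE vM21 lengths, which gave the depths.

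For each pair of groups, limma 3.58.1 (eBayes with trend, R 4.3.3) was run on log2(FPKM + 0.1), since the values are not counts, over 13817 genes with at least 0.1 FPKM in 3 of 9 libraries, with Benjamini-Hochberg adjustment and a threshold of 0.05. Each mouse is 1 sample of its group by the labels. Alternatives were pseudocounts of 1 and 0.01, no filter or 1 FPKM, scaling by median of ratios or quantiles, 1 fit over all libraries, a replicate block, voom on recovered reads, summed paralogs and leaving out each library. The code was tested on simulated data. Python 3.11.15, pandas 2.3.3, numpy 2.4.6, matplotlib 3.10.9 and Biopython 1.88 (alignments) were used.

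The 7 genes and all lists were chosen with earlier results of these data known. Named are the 7 genes, up to 3 genes of each list and direction with the largest fold past the threshold and a group mean of at least 1 FPKM, Nr1i3, Nr1i2, the 3 genes most like each of the 7, and Cyp2 neighbours. Por, Tef and Nlrp9c were named after their values were seen. Promoter windows are from RefSeq, with all 7 genes matched. Reads and protein sequences were not used here.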

Additional observations from a re-analysis of the deposited data

How the results depend on the processing

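The number of the 7 genes called was 0 for HGPP against MCD, 2 for HGPP against MCS and 1 for MCD against MCS under all 9 alternatives of pseudocount, filter, scaling, fit, block and counting model. With each library left out in turn it ranged from 0 to 1, from 2 to 2 and from 1 to 2. The higher counts came without MCD replicate 1, where Cyp2b10 for HGPP against MCD and Cyp2a5 for MCD against MCS passed the threshold, beside 443 and 3629 of 13817 genes, and these are a description and no test of the chosen genes. Summing the FPKM of the 3 Cyp2b genes gave a log2 value of -0.34 for HGPP against MCS, the reverse of Cyp2b10 alone, because Cyp2b9 makes up at least 96.0% of the sum.

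Counts over all genes moved more. For HGPP against MCD, 3 genes were called, against 0 with no filter, 16 in one fit over 9 libraries, 0 with quantile normalization, 1 with voom and 0 to 443 with a library left out, 443 being without MCD replicate 1. For HGPP against MCS, 2602 genes were called (2260 higher, 342 lower), against 1376 with median-of-ratios scaling (704 higher, 672 lower), 1420 in one fit over 9 libraries, 1201 with quantile normalization (658 higher, 543 lower) and 1025 to 2025 with a library left out. For MCD against MCS, 3060 genes were called (2707 higher, 353 lower), against 2250 with median-of-ratios scaling (1231 higher, 1019 lower), 1258 with quantile normalization (669 higher, 589 lower) and 1248 to 3629 with a library left out. The cause was not tested.

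Libraries share replicate numbers only as names. Of 9 same-numbered pairs, 1 had a correlation of deviations over 0.1 (range -0.34 to 0.30), and 0 libraries were closest to their own number in both other groups. With the replicate block 14, 1585 and 1876 genes were called in the 3 comparisons, and 0, 2 and 1 of the 7 genes.

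Depth limits Cyp2b10 and Cyp2b13 most, at 0 to 80 and 7 to 101 reads per library, where intervals would cover counting error only. All comparisons rest on 3 mice a group. The paper's supplement gives an RNA integrity value for each library, which was lowest for MCD replicate 3. Its part in these levels was not tested.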
